A study of Mus musculus with 15 samples.

Results

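The axon growth and guidance genes described here are Gap43, Plxna3, Epha5 and Nrp1, measured in mouse olfactory epithelium after removal of the olfactory bulbs. Their members were all probe sets annotated to only 1 of these 4 symbols, which gave 6 of the 10833 single-gene probe sets on the array and 4 of its 8251 genes. Plxna3 and Gap43 had 1 probe set each, and Epha5 and Nrp1 had 2 each. The study used 15 Affymetrix MG_U74Av2 arrays in 5 groups of 3. OBX stands for bilateral olfactory bulbectomy, in which both bulbs, the brain target of olfactory sensory neurons, are taken out, and OBX epithelium was collected 1, 5 or 7 days later. The other groups were sham-operated mice at day 5 and untreated mice. All groups were male C57Bl/6 mice of 6 weeks, and every array carried 5 µg of RNA from each of 3 mice, so that an array stands for a pool and not for an animal. No genetic change is named for any group. The title names neuronal death and renewal in this epithelium as the subject.

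Olfactory sensory neurons are replaced throughout life, and each new neuron grows an axon through the nasal mucosa and the cribriform plate to its target in the bulb. Gap43 encodes a phosphoprotein of the growth cone that newly formed olfactory neurons make while their axons extend and lose as they mature. Plexin-A3, from Plxna3, is a transmembrane receptor that carries the signal of secreted class 3 semaphorins into the growth cone. Nrp1 encodes neuropilin-1, the subunit that binds Sema3a and, on endothelial cells, vascular endothelial growth factor. Epha5 encodes a receptor tyrosine kinase for the membrane-anchored ephrin-A ligands, which act on axons by contact.

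The 4 genes followed 3 courses. The receptors Plxna3 and Epha5 fell after bulbectomy in each comparison with a control, Plxna3 2.01-fold at day 1, 2.82-fold at day 5 and 2.48-fold at day 7, and Epha5 1.86-fold, 2.86-fold and 2.0-fold on those days. Gap43 was level with the control at day 1 and rose 1.3-fold at day 5 and 1.41-fold at day 7. Neither probe set of Nrp1 passed the test in any comparison. Each comparison was a limma fit over 7508 probe sets, Benjamini-Hochberg adjusted with a threshold of 0.05, and each p below is adjusted in this way. When the day of array scanning was added to the fit as a block, Plxna3 kept its calls against the controls. Epha5 and Gap43 lost theirs.

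The promoters of the receptors that fell together are shown so that their sequences can be compared. Each sequence holds 250 bases before and 50 bases after the annotated start, from RefSeq on build GRCm38.p6, at chrX:74328816-74329115 on the plus strand for Plxna3 and chr5:84417333-84417632 on the minus strand for Epha5. Capitals mark matches to 7 short motifs searched on both strands.
Plxna3: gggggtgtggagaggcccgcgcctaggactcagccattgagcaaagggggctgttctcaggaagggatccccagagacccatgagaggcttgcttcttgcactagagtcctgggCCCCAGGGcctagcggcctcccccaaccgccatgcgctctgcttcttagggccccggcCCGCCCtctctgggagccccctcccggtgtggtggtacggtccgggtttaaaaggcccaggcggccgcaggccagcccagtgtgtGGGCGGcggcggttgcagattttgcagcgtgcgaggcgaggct
Epha5: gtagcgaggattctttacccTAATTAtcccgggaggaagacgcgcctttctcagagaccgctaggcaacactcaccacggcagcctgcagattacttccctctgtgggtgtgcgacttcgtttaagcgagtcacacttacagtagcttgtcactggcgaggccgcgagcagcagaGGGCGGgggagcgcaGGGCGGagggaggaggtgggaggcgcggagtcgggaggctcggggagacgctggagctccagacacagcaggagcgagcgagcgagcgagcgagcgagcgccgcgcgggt
In Plxna3 the capitals CCCCAGGG match CCCNNGGG, the core bound by the Olf-1/Ebf factors of olfactory neurons, which reads the same on both strands and is held by 13.7% of 32851 promoters of this length. The other capitals in Plxna3, and GGGCGG in Epha5, match the GC box GGGCGG or its reverse complement. Each gene held 2 GC boxes, a motif found in 35.7% of promoters. TAATTA in Epha5 is a homeodomain core, held by 5.29% of promoters. Neither promoter held TATAAA, TGACGTCA (the cyclic AMP response element) or the E-boxes CAGATG and CAGCTG, which 13.6%, 1.79%, 17.2% and 16.3% of promoters hold, and no match overlapped another. Plxna3 held 18 CG dinucleotides and Epha5 held 30, against a median of 7 and quartiles of 3 and 20 over all promoters. In the same window Nrp1, the receptor subunit that passed no test, held 1 GC box and no match to the other motifs. A match describes letters only, and binding was not measured.

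Present calls covered 49.1% to 58.8% of probe sets, and arrays of a group correlated at 0.914 to 0.986. Signals are in arbitrary linear units, and precision is limited by the small number of arrays. The array of OBX day 5 replicate 1 stood apart: it held the lowest of the 15 signals for 28.3% of the tested probe sets and the highest for 24.5%, against 3.4% to 8.4% and 3.0% to 10.4% on the other arrays. The neuronal marker Omp was present on every array, at 39192 ± 1840 in untreated mice (SD, n = 3). None of 10 skeletal muscle genes reached the present calls on 3 arrays that testing required. Matrix and bone genes were bright, with untreated means of 48758 for the collagen Col1a1 and 6390 for the bone gene Ibsp. Of 3 measured bone and cartilage genes 2 rose at day 5 and 1 at day 7, beside 11.8% and 7.01% of all tested probe sets. There were 2 scan days. The first held every untreated and sham array and 2 arrays of OBX day 1, and the second held the remaining OBX arrays. The comparisons of OBX days 5 and 7 with a control can therefore be separated from scan day only through OBX day 1.

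**Figure D1:**
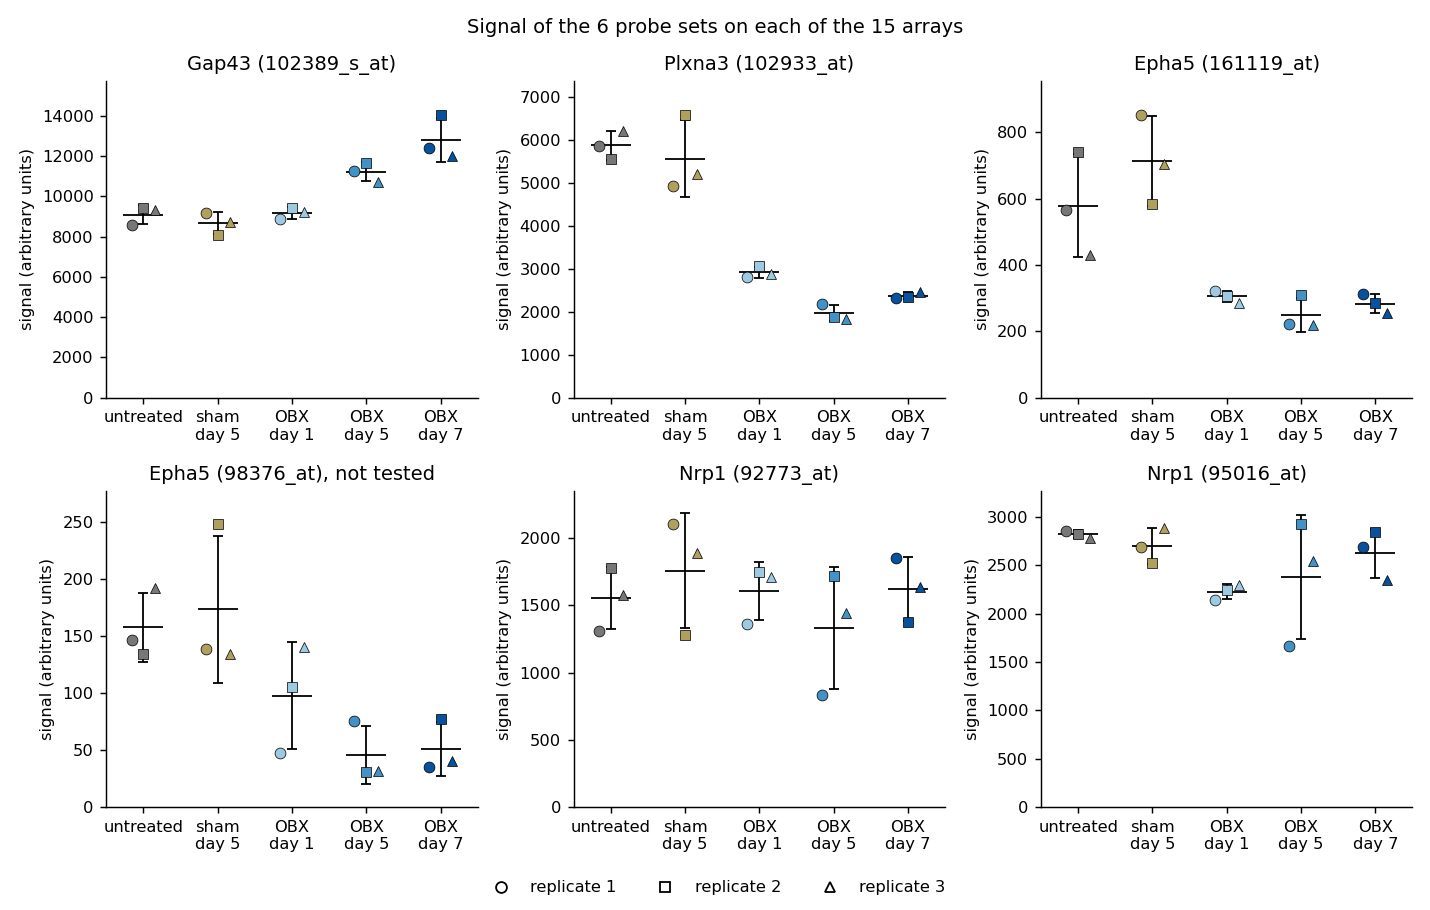
Signal in arbitrary units on a linear axis from 0 for the 6 probe sets (panels), by group; symbols are the 3 arrays of a group, the bar is their mean and the whisker the SD. The OBX arrays lie below all 6 control arrays for Plxna3 and for Epha5 (161119_at), the day 5 and day 7 arrays lie above all controls for Gap43, and OBX day 5 replicate 1 (circle) is the lowest array for both Nrp1 probe sets.

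Plxna3 was already low 1 day after bulbectomy. Its probe set (102933_at) gave signals of 2815.1, 3066.2 and 2883.2 in OBX day 1 mice, against 5860.6, 5560.1 and 6223.8 in untreated mice. All 3 day 1 pools lay below all untreated pools. The log2 change was -1.01 ± 0.11 (SE; limma adjusted p = 0.00037), the 35th lowest of the 7508 tested. In this comparison 2.46% of tested probe sets passed in either direction, 1.80% higher and 0.666% lower, and pools did not overlap for 27.1%. Of the 5 tested member probe sets 2 passed, those of Plxna3 and Epha5, and both were lower.

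At day 5 Plxna3 signals were 2174, 1881.4 and 1837.3 in OBX mice, against 4927.2, 6589.9 and 5205 in sham mice of the same day. No bulbectomised pool came near a sham pool, and the log2 change was -1.5 ± 0.11 (limma adjusted p = 3.3e-06). Day 7 signals were 2312.9, 2349.2 and 2459 in OBX mice, a change of -1.31 ± 0.11 from the untreated pools (limma adjusted p = 1.2e-05). The 3 day 7 pools lay close together, below every control pool and above every day 5 pool. At day 5 21.0% of tested probe sets passed (11.8% higher and 9.19% lower), and at day 7 13.0% passed (7.01% higher and 6.02% lower). Pools did not overlap for 33.9% at day 5 and 41.8% at day 7. Of the 5 member probe sets 3 passed on each of these days, Plxna3 and Epha5 lower and Gap43 higher.

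The course of Plxna3 within the OBX groups was a further fall and no tested recovery. It was lower at OBX day 5 than at OBX day 1 by a log2 change of -0.58 ± 0.11 (limma adjusted p = 0.0057), and the pools did not overlap. In that comparison 7.82% of tested probe sets passed (3.96% higher and 3.86% lower, with pools that did not overlap for 23.9%), and Plxna3 was the 1 member probe set that did. Between OBX day 7 and OBX day 5 the change was 0.28, with a 95% interval of 0.03 to 0.52 before adjustment and limma adjusted p = 0.56 after it. No probe set passed in that comparison by limma, while 601 had an unadjusted p under 0.05 and 10.1% had pools that did not overlap. Ordered by mean signal from low to high, OBX day 5 (1964 ± 183), day 7 (2374 ± 76.1) and day 1 (2922 ± 130) followed one another without overlap, and sham (5574 ± 891) and untreated mice (5882 ± 332) overlapped (SD, n = 3 each). With scan day as a block, Plxna3 kept its calls against the controls, at -1.0, -1.47 and -1.28 for days 1, 5 and 7 (limma adjusted p = 0.0044, 0.014 and 0.029), and lost that of day 5 against day 1 (-0.56, limma adjusted p = 0.15).

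Epha5 followed a similar course on a weaker signal. Its probe set 161119_at, present on all 15 arrays, gave 321.8, 306.4 and 286.5 in OBX day 1 mice, against 565.6, 739.5 and 431.3 in untreated mice. The untreated pools were widely spread, yet every day 1 pool lay below them. The log2 change was -0.89 ± 0.22 (limma adjusted p = 0.043). This call was lost with scan day as a block (-0.85, limma adjusted p = 0.17) and on leaving out any 1 of 9 arrays (untreated replicates 1 and 2, sham replicate 3, and each array of OBX days 1 and 7), with adjusted p between 0.018 and 0.17 over the 15 arrays left out in turn.

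At day 5 Epha5 signals were 221, 309.5 and 219.3 in OBX mice, against 852.6, 582.4 and 704.6 in sham mice. The groups were far apart, and the log2 change was -1.51 ± 0.22 (limma adjusted p = 0.00025). At day 7 the OBX pools gave 312, 284.5 and 254, a change of -1.0 ± 0.22 from untreated mice (limma adjusted p = 0.0075). Both calls were lost with scan day as a block, at -1.38 (limma adjusted p = 0.14) and -0.87 (limma adjusted p = 0.62). The 3 OBX days overlapped one another, with means of 304.9 ± 17.7 at day 1, 249.9 ± 51.6 at day 5 and 283.5 ± 29.0 at day 7, and sham (713.2 ± 135) and untreated mice (578.8 ± 155) overlapped as well (SD, n = 3 each). The change of OBX day 5 from day 1 was -0.30, with a 95% interval of -0.76 to 0.16.

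The other Epha5 probe set, 98376_at, was called present on 1 of 15 arrays, an untreated one, and was not tested. Its signals were 47.5, 104.8 and 140.7 at OBX day 1, 75, 30.6 and 31.7 at OBX day 5 and 34.7, 77.5 and 40.2 at OBX day 7. In sham mice they were 138.3, 247.7 and 134.1, and in untreated mice 146.4, 134.3 and 191.7. The pools of OBX days 5 and 7 lay below all control pools, but since no OBX or sham array and 1 of 3 untreated arrays called it present, no fold is given.

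Gap43 went the other way, and later. Its probe set (102389_s_at, a design in which probes can match more than 1 transcript) was present on all 15 arrays. Signals were 8858, 9430.7 and 9224 in OBX day 1 mice, against 8576.3, 9412.3 and 9311.3 in untreated mice. The groups overlapped, and the log2 change was 0.01 with a 95% interval of -0.18 to 0.20 (limma adjusted p = 0.98). A rise of more than 0.20 at day 1 was therefore outside the interval.

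At day 5 Gap43 signals were 11277.5, 11678.4 and 10735.1 in OBX mice, against 9155.9, 8072.6 and 8751.4 in sham mice. Every bulbectomised pool was above every sham pool, and the log2 change was 0.38 ± 0.09 (limma adjusted p = 0.0078). At day 7 the OBX pools gave 12406.8, 14055.1 and 11997, a change of 0.49 ± 0.09 from untreated mice (limma adjusted p = 0.0024). All 3 also lay above the day 5 pools. With scan day as a block both sizes stayed and both calls were lost, at 0.36 (limma adjusted p = 0.41) and 0.48 (limma adjusted p = 0.39).

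Within the OBX groups Gap43 was higher at day 7 than at day 1 by a log2 change of 0.48 (limma adjusted p = 0.0049, a contrast added after the data were seen). The steps between were 0.29 at day 5 against day 1 (limma adjusted p = 0.057) and 0.19 at day 7 against day 5 (limma adjusted p = 0.56), and neither passed. Within the second scan day, which held 1 pool of OBX day 1, the day 7 change was 0.47 (limma adjusted p = 0.16). Ordered by mean, OBX day 7 (12820 ± 1090) and OBX day 5 (11230 ± 473) stood above the rest, and OBX day 1 (9171 ± 290), sham (8660 ± 547) and untreated mice (9100 ± 456) overlapped (SD, n = 3 each).

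Nrp1 showed no change that passed. On probe set 95016_at the OBX day 1 pools gave 2144.3, 2242.3 and 2298.6, against 2860.5, 2829.5 and 2779.6 in untreated mice. The day 1 pools were lower without overlap, as were those of 12.0% of tested probe sets, and the log2 change was -0.34 ± 0.16 (limma adjusted p = 0.34). Without OBX day 5 replicate 1, whose spread enters the shared error, the same change had limma adjusted p = 0.031. Leaving out that array also raised the number of all probe sets that passed at day 1 from 185 to 630. On the other probe set, 92773_at, the day 1 pools gave 1361.7, 1751.3 and 1712.5, against 1312.9, 1778.9 and 1574.6 in untreated mice, which overlapped with a change of 0.05 and a 95% interval of -0.47 to 0.57. The lower level at day 1 was thus seen on 1 of 2 probe sets.

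At day 5 probe set 95016_at gave 1665.5, 2924.2 and 2549.9 in OBX mice, against 2692.3, 2522.8 and 2891.1 in sham mice. Probe set 92773_at gave 834.3, 1716.6 and 1445.3 in OBX mice, against 2103, 1279.9 and 1889.4 in sham mice. On both, OBX day 5 replicate 1 was the lowest of all 15 arrays and the other pools lay within the sham range or, for 1 pool on 95016_at, just above it. The log2 changes were -0.22 for 95016_at (limma adjusted p = 0.35) and -0.43 for 92773_at (limma adjusted p = 0.23). Without that array 95016_at changed by 0.02, so that 1 array set its direction. At day 7 the OBX pools gave 2689, 2841.2 and 2346 on 95016_at and 1851.4, 1374.6 and 1637.2 on 92773_at, overlapping untreated mice on both, with changes of -0.11 and 0.06. The 95% intervals at day 7 were -0.45 to 0.23 and -0.46 to 0.58, which leave room for changes of that size in either direction.

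**Figure D2:**
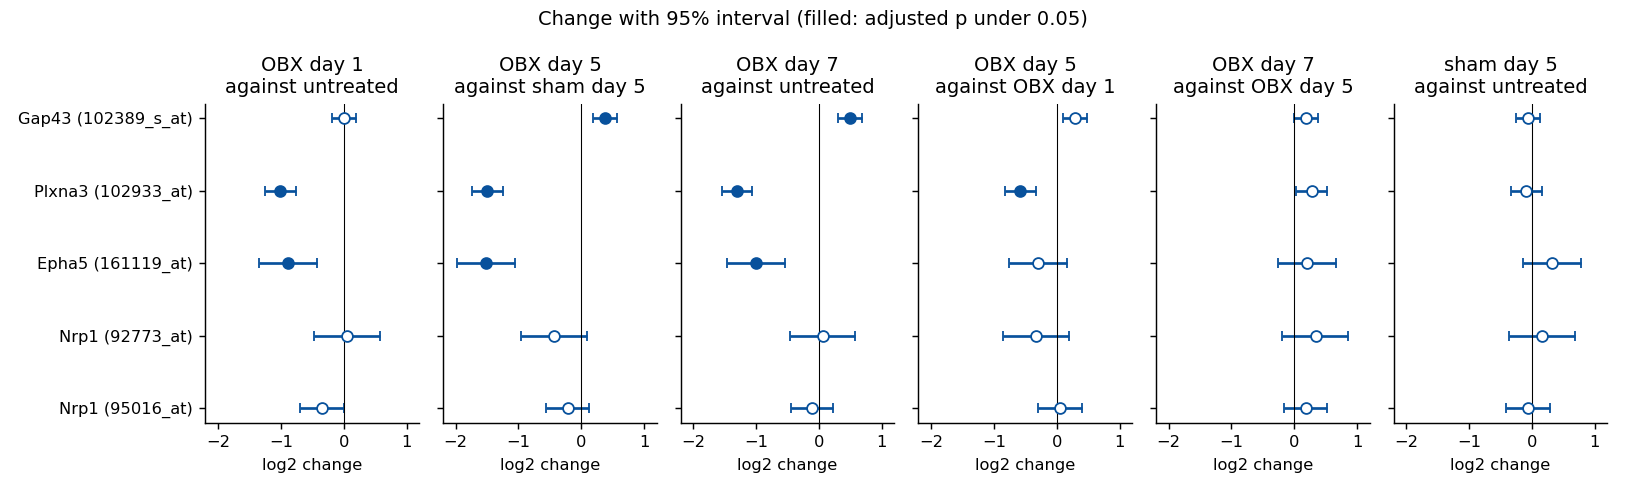
Log2 change (x axis) of the 5 tested probe sets (rows) in 6 comparisons (panels), with 95% intervals before adjustment; filled points passed at an adjusted p under 0.05. Plxna3 and Epha5 lie left of 0 in the 3 comparisons with a control, Gap43 lies right of 0 at days 5 and 7, and sham against untreated mice has no filled point.

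At day 5 the operation without removal of the bulbs gave no call on any member. Sham mice were collected at day 5 only, so the effect of the operation itself at days 1 and 7 was not measured. Sham minus untreated log2 changes were 0.32 for Epha5, -0.09 for Plxna3, -0.07 for Gap43, and 0.16 and -0.07 for the Nrp1 probe sets, all with limma adjusted p = 1.0. The groups overlapped for all 5, while they did not for 7.25% of tested probe sets. By limma 0% of tested probe sets passed here, with 112 at an unadjusted p under 0.05. The 95% interval for Epha5 was -0.14 to 0.78, and against untreated instead of sham mice its day 5 change was -1.20 (limma adjusted p = 0.0014).

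No member's change from its own control differed between days 5 and 1 past the threshold in the fit used throughout. The change at day 5 minus the change at day 1 was 0.36 for Gap43 (limma adjusted p = 0.20), -0.49 for Plxna3 (limma adjusted p = 0.18) and -0.62 for Epha5 (limma adjusted p = 0.40). Plxna3 and Gap43 did pass with array weights and with fluidics run as a random block, and Plxna3 also without OBX day 5 replicate 1 (-0.56, limma adjusted p = 0.045). In the fit used throughout 1.48% of tested probe sets (111) passed in this contrast, 0.546% higher and 0.932% lower. More passed in each of those other fits, 1805 with fluidics run and 306 without OBX day 5 replicate 1. Over the 5 groups together the limma F test passed for Plxna3 (adjusted p = 1.3e-06), Epha5 (adjusted p = 0.00037) and Gap43 (adjusted p = 0.0011), as it did for 19.3% of tested probe sets, and not for Nrp1 (adjusted p = 0.39 and 0.64).

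Most markers of mature olfactory sensory neurons fell with the receptors at days 5 and 7, but most did not pass at day 1. Omp, the olfactory marker protein of mature neurons, gave 31600.3, 28359.3 and 27411.3 at OBX day 1, 19232.5, 12480 and 5420.4 at OBX day 5, and 13207.9, 13146.1 and 13522.5 at OBX day 7, against 39155.8, 39188.4 and 38394.5 in sham and 38274.5, 41307.1 and 37995.6 in untreated mice. Of 9 measured mature neuron genes 1 fell at day 1, 7 at day 5 and 7 at day 7, beside 0.666%, 9.19% and 6.02% of all tested probe sets. Each of the 9 was present on at least 1 array of every group. Their summed signal was 113749 to 120304 at OBX day 1, 48685 to 76315 at OBX day 5 and 68744 to 75108 at OBX day 7, against 145941 to 153828 in sham and 143639 to 156692 in untreated mice. Their part in the fall of Plxna3 and Epha5 was not tested. In such bulk tissue, fewer cells of a type and less RNA per cell cannot be told apart.

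The genes of the mature neuron list other than Omp are named here after their values were seen. As a share of the untreated mean, Plxna3 stood at 49.7% and Epha5 at 52.7% on OBX day 1. Omp stood at 74.3%, Adcy3, the adenylyl cyclase of odorant signalling, at 62.3%, and Cnga2, a subunit of the odorant-gated channel, at 68.5%. None of these 3 passed at day 1, Adcy3 narrowly (limma adjusted p = 0.054). Their day 1 pools all lay below the untreated pools, as did those of 12.0% of tested probe sets. Ebf3, an Olf-1/Ebf factor and the 1 gene of the list that fell at day 1 (limma adjusted p = 0.0035), stood at 58.9%. At the other end S100a5, a calcium-binding protein, stood at 99.1% and Gnb1, a G protein beta subunit, at 124.9%. Ebf1, also an Olf-1/Ebf factor, stood at 83.3% at day 1 and 98.3% at day 7. Ebf1 and Gnb1 did not pass at day 1, 5 or 7. None of the 9 marker genes had fallen as far as either receptor at day 1 by its log2 change, whereas 4 had at day 5 and 4 at day 7. At day 5 the shares were 33.4% for Plxna3 and 43.2% for Epha5, against 31.6% for Omp and 20.4% for Adcy3. The difference between the genes in their day 1 change was not tested. Untreated mean signals were 578.8 for Epha5 and 5882 for Plxna3, and from 2115 (Ebf1) to 39192 (Omp) for the markers. The effect of signal level on these shares was not tested either.

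**Figure D3:**
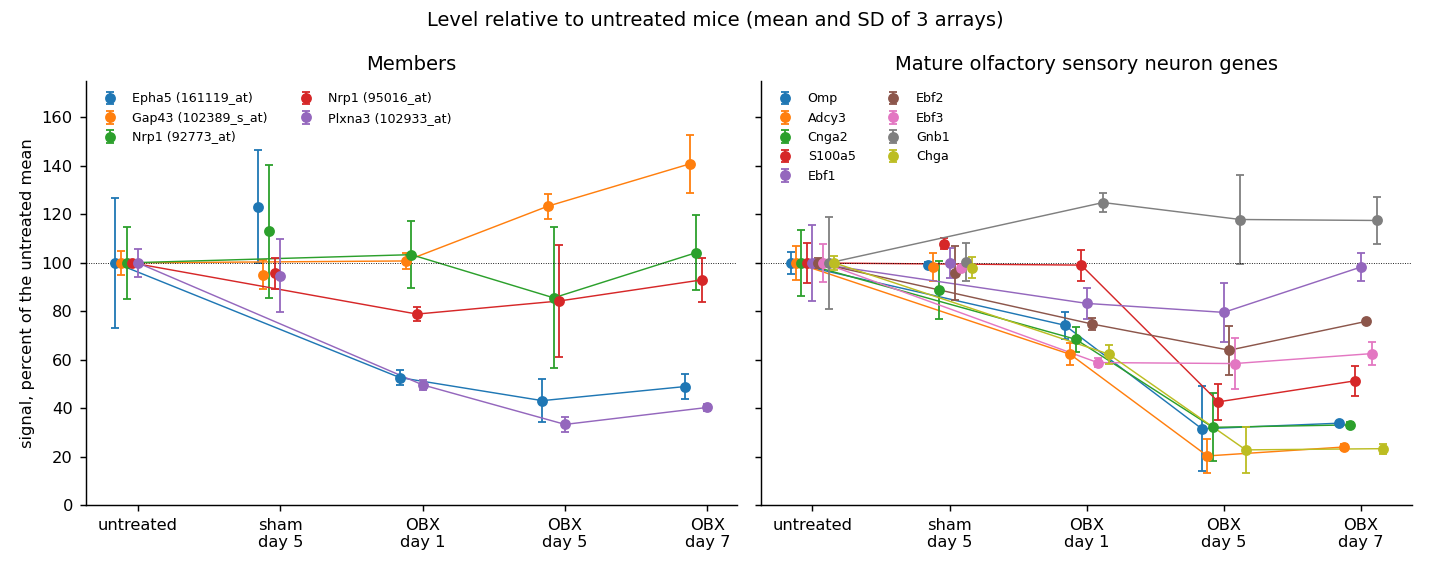
Signal as a percentage of the untreated mean (y axis) by group, for the tested member probe sets (left) and the 9 mature neuron genes (right); points and whiskers are the mean and SD of 3 arrays, and lines join untreated mice and the OBX days. Plxna3 (49.7%) and Epha5 (52.7%) lie below each marker gene at day 1, while Adcy3 (20.4%) and Omp (31.6%) lie below both at day 5.

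Many markers of younger cells rose with Gap43 at days 5 and 7. Of 12 measured genes of immature olfactory neurons, a list that holds Gap43 itself, none passed at day 1, 6 rose and 1 (Dcx) fell at day 5, and 6 rose at day 7. Their summed signal was 78700 to 84001 at OBX day 1, 85297 to 102082 at OBX day 5 and 98838 to 109563 at OBX day 7, against 78772 to 84807 in sham and 79974 to 84523 in untreated mice. Of 16 genes of dividing and neuronal progenitor cells none passed at day 1, 12 rose at day 5 and 13 rose at day 7. Beside both lists, 1.80%, 11.8% and 7.01% of all tested probe sets rose on these days, and 9.19% fell at day 5. Neurog1, a transcription factor of neuronal progenitors, had mean signals of 521.6 ± 155, 1160 ± 363 and 1031 ± 232 at OBX days 1, 5 and 7, against 504.8 ± 38.8 in sham and 460.0 ± 25.6 in untreated mice (SD, n = 3 each). Tubb3, a tubulin of young neurons, had means between 14099 and 14372 in all 5 groups. The part of these cells in the rise of Gap43 was not tested.

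Endothelial cells and macrophages can also make Nrp1. Of 10 measured endothelial genes 1 rose at day 1, 3 at day 5 and 2 at day 7 and the others did not pass, beside 1.80%, 11.8% and 7.01% of all tested probe sets that rose, with Pecam1, their defining adhesion molecule, present on no array. Their summed signal was 9144 to 11890 at OBX day 1, 11487 to 12545 at OBX day 5 and 9940 to 10663 at OBX day 7, against 7902 to 9273 in sham and 7048 to 8811 in untreated mice. Of 14 macrophage genes 2 rose at day 1, 7 at day 5 and 7 at day 7, beside the same 1.80%, 11.8% and 7.01%, and the others did not pass. Their summed signal was 31607 to 31797, 44605 to 50131 and 34496 to 38258 at these days, against 24508 to 31086 in sham and 23035 to 27033 in untreated mice. Over the 15 arrays Nrp1 probe set 95016_at and Cd68, a macrophage lysosomal protein, had a Pearson correlation of -0.852, and the other Nrp1 probe set and Cd68 one of -0.55. Cd68 also gave -0.622 with Epha5, -0.487 with Plxna3 and -0.049 with Gap43. With Tubb3 the same 2 Nrp1 probe sets gave -0.348 and -0.703, and with Neurog1 -0.339 and -0.537. They gave 0.074 and 0.133 with Omp, and -0.214 and -0.313 with the keratin Krt17. These values describe arrays that share their groups. OBX day 5 replicate 1 had the highest Cd68 signal of the 15 arrays (2497.5) and the lowest on both Nrp1 probe sets. Cd68 itself passed at none of the 3 days. The part of endothelial cells and macrophages in the level of Nrp1 was not tested. Of 7 measured ligands and partners of Nrp1 in the growth factor families none passed in any of the 3 comparisons.

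The members also differed in the genes they resembled. Across the 15 arrays the log2 signal of Plxna3 was most like those of Dtx1 (Pearson correlation 0.966), an E3 ligase of Notch signalling, Socs5 (0.961), of the suppressor of cytokine signalling family, and Ltk (0.958), a receptor tyrosine kinase. Gap43 was most like Sox11 (0.966), a transcription factor of new neurons, Bzw2 (0.935) and Stmn1 (0.935), a microtubule-destabilising protein. Epha5 was most like Tspyl1 (0.931), Kcna2 (0.929), a voltage-gated potassium channel, and Tspyl4 (0.918). The 3 genes most like each Nrp1 probe set, Ube2g1, C330007P06Rik and Naa30 for 92773_at (0.940 to 0.920) and Mterf2, Cask and Wdr48 for 95016_at (0.927 to 0.904), all had their lowest signal on OBX day 5 replicate 1. That array was also the lowest for both Nrp1 probe sets, which these genes were picked to resemble, and for 28.3% of tested probe sets. Among the members Plxna3 and Epha5 correlated at 0.867, Plxna3 and Gap43 at -0.758, and the Nrp1 probe sets with each other at 0.635. These values describe 15 arrays that share groups and scan days.

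The wider growth and guidance families were counted by the brightest tested probe set of each gene. The 8 lists held 70 measured genes, among them the members and the 7 ligands and partners of Nrp1 in the growth factor families. Of the 70 genes 2 rose and 3 fell at day 1, and 6 rose and 17 fell at day 5. At day 7, 8 rose and 12 fell. Over all tested probe sets 1.80%, 11.8% and 7.01% rose on these days, and 0.666%, 9.19% and 6.02% fell. The same shares apply beside the counts of each list below. The median log2 changes of the 70 genes were -0.05, 0.01 and -0.03, against 0.00, -0.01 and 0.03 over all tested probe sets. Without OBX day 5 replicate 1 the counts of genes past the threshold were 11, 27 and 30.

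Among the ligands, Sema7a, a membrane-anchored semaphorin that promotes olfactory axon growth, changed direction with time. Its signals were 6726.8, 7906.6 and 7282.6 at OBX day 1, against 3890, 4825.7 and 3705.2 in untreated mice, a rise of 0.83 ± 0.12 (limma adjusted p = 0.0027). At day 5 they were 2816.2, 2424.7 and 2187.9 in OBX mice, against 4877.7, 4289 and 4589.9 in sham mice, a log2 change of -0.89 ± 0.12 (limma adjusted p = 0.0002). At day 7 they were 2130.3, 1940.2 and 1970.4, a log2 change of -1.03 ± 0.12 from untreated mice (limma adjusted p = 0.00012). The groups did not overlap at any of the 3 days, and the difference between the day 5 and day 1 changes was itself past the threshold (-1.72 ± 0.17, limma adjusted p = 0.00024). With scan day as a block the day 1 rise and this difference kept their calls, while the falls at days 5 and 7 lost theirs.

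The other 7 measured semaphorins gave 2 calls, both close to the threshold. Sema4f fell at day 5 (-0.39 ± 0.13, limma adjusted p = 0.047) and Sema6d, present on 2 OBX and 1 untreated arrays, fell at day 7 (-0.60 ± 0.18, limma adjusted p = 0.044). Leaving out 1 array in turn, Sema4f kept its call in 2 of 15 fits and Sema6d in 3 of 15, and with scan day as a block Sema4f gave -0.09. Sema3a, the ligand of Nrp1, did not pass at any day, with log2 changes of 0.11, 0.05 and 0.34. Sema3f was present on 2 of 15 arrays and was not tested. Among the receptors of semaphorins, Plxna3 was the 1 that fell of 3 measured, while Plxnb2 gave -0.10, 0.03 and -0.22 and did not pass.

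Of 3 measured ephrins none passed at day 1, 2 fell at day 5, and 2 fell and 1 rose at day 7. Efna3, an ephrin-A ligand, gave 7383.9, 4673.6 and 4744.6 in OBX day 5 mice, against 9883.2, 11636.8 and 10415.4 in sham mice. It fell by 0.96 on the log2 scale at day 5 (limma adjusted p = 0.0046) and by 1.00 at day 7 (limma adjusted p = 0.0058), and at day 1 its change was -0.81 (limma adjusted p = 0.054). With scan day as a block its changes were -0.30 at day 5 and -0.35 at day 7, and neither passed. Efnb3 fell by 0.62 at day 5 (limma adjusted p = 0.0045) and 0.69 at day 7 (limma adjusted p = 0.0041), and Efnb2 rose by 0.47 at day 7 (limma adjusted p = 0.03), a call lost without any 1 untreated array or OBX day 7 replicate 1 or 3 and at 0.25 with scan day as a block.

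Epha7, a further ephrin-A receptor, was called present on none of the OBX day 1 and day 5 arrays. Its mean signal at day 1 was 230.1 in OBX against 516.4 in untreated mice (limma adjusted p = 0.021), and at day 5 169.2 in OBX against 489.5 in sham mice (limma adjusted p = 0.00057). Both were lower past the threshold, and no fold is given because the OBX side was not called present. At day 7 it fell by 0.80 (limma adjusted p = 0.047), present on 1 OBX and 2 untreated arrays, and this call held in 5 of 15 fits that left out 1 array. The day 1 call was lost without untreated replicate 1 or 2 or OBX day 1 replicate 2 or 3. With scan day as a block the Epha7 change was -0.98 at day 5 and -0.21 at day 7, and neither passed. Of the 5 measured Eph receptors 2 passed at day 1, 3 at day 5 and 2 at day 7, all lower, and the third at day 5 was Ephb6, present on none of those 6 arrays. Epha4 and Ephb3 did not pass at any day.

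**Figure D4:**
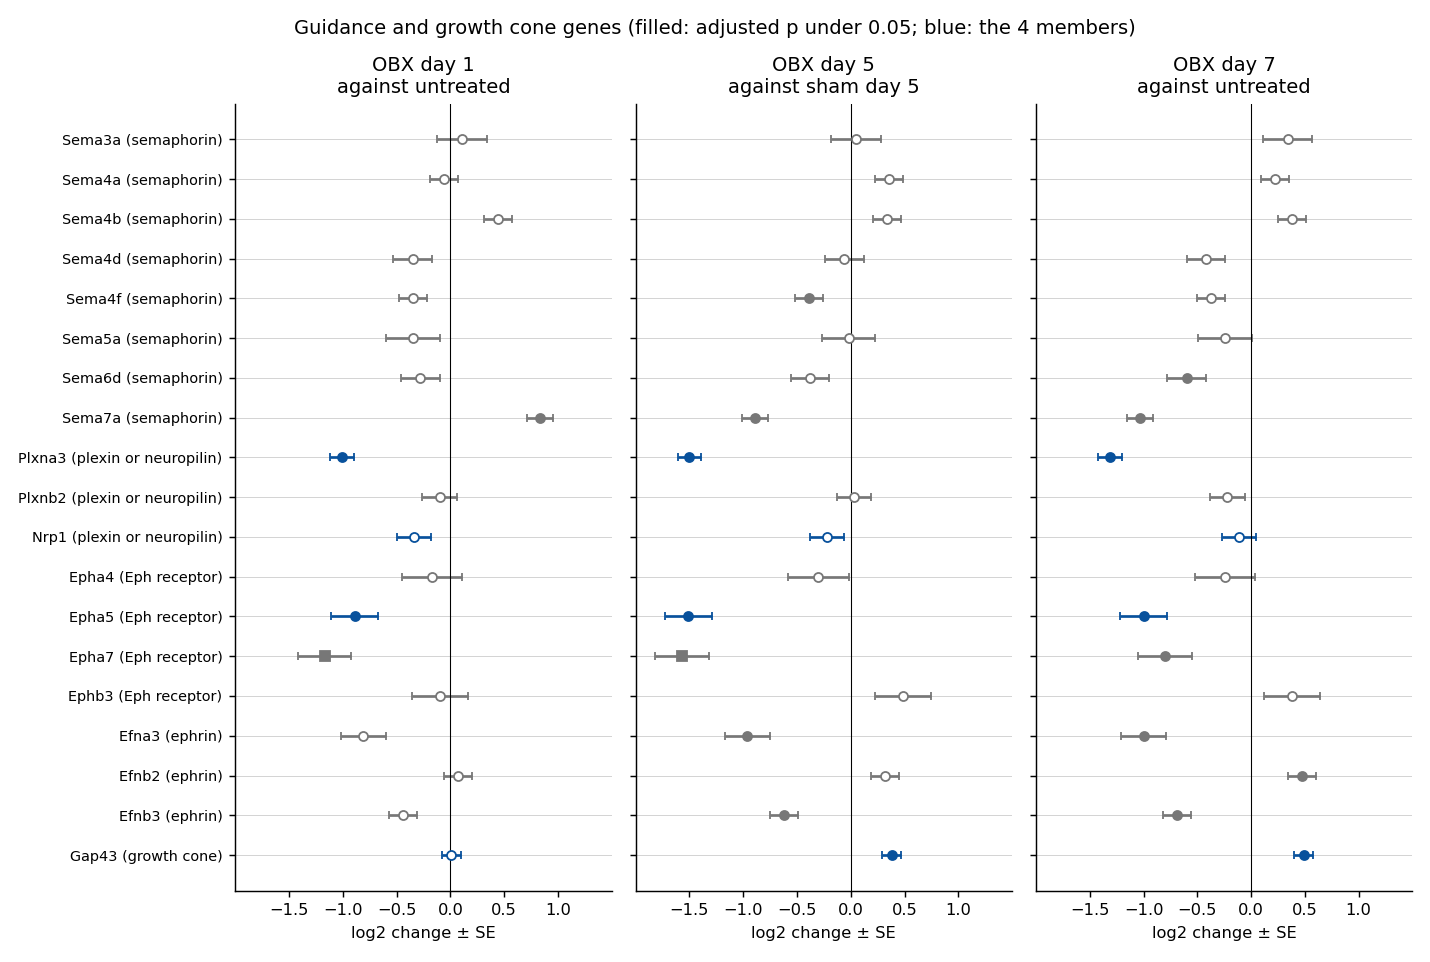
Log2 change ± SE (x axis) of the measured semaphorin, plexin, neuropilin, Eph receptor and ephrin genes and Gap43 (rows), by comparison (panels); filled points passed at an adjusted p under 0.05, blue marks the 4 members, squares mark Epha7 where no OBX array called it present, and Ephb6 is left out. Sema7a lies right of 0 at day 1 (0.83) and left of it at days 5 (-0.89) and 7 (-1.03), while Plxna3 and Epha5 lie left of 0 at each day. Scan day is not a block here, and with it as a block Sema7a lost its calls at days 5 and 7.

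Growth cone and cytoskeletal genes moved in both directions. Of 28 measured, 1 rose at day 1, 6 rose and 4 fell at day 5, and 7 rose and 2 fell at day 7. With Gap43, Stmn1 rose by 0.53 at both later days (limma adjusted p = 0.0017 and 0.0031) and Mapt, the microtubule protein tau, by 0.45 and 0.58 (limma adjusted p = 0.006 and 0.0019). Pak3, a kinase of the actin cytoskeleton, fell by 1.59 at day 5 (limma adjusted p = 7.2e-05), when 2 of 3 OBX arrays called it present. Dcx, a microtubule protein of migrating neurons, fell by 0.88 at day 5 (limma adjusted p = 0.0045), and by 0.58 without OBX day 5 replicate 1, with the call kept.

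Stmn4, a microtubule regulator of the stathmin family, followed the course of Sema7a. It gave 14841.8, 11389.8 and 14128.5 in OBX day 1 mice, against 6396.1, 6366.9 and 5160.8 in untreated mice, a rise of 1.17 ± 0.13 (limma adjusted p = 0.00024). At day 7 the OBX pools gave 3360.2, 3954.2 and 3518.5, a log2 change of -0.72 ± 0.13 (limma adjusted p = 0.0018). The pools did not overlap at either day. With scan day as a block the day 1 call of Stmn4 stayed and its day 7 call was lost. Gap43, by contrast with both genes, had no change at day 1 that passed.

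Axonal adhesion molecules gave calls in the downward direction alone, although the list as a whole moved little. Of 13 measured none passed at day 1, 4 fell at day 5 and 3 fell at day 7. The share of all tested probe sets that fell was 9.19% at day 5 and 6.02% at day 7. The median log2 change of the 13 was -0.15 at day 5 and -0.01 at day 7. Cntn4, a contactin of olfactory axons, fell by 1.47 at day 5 (limma adjusted p = 0.00012) and 1.04 at day 7 (limma adjusted p = 0.0026). Ncam2, the olfactory cell adhesion molecule, fell by 0.94 at day 5 (limma adjusted p = 0.006), Ncam1 by 0.39 and 0.38 at the later days (limma adjusted p = 0.019 and 0.032), and L1cam by 0.63 and 0.77 (limma adjusted p = 0.047 and 0.027). Leaving out 1 array in turn, L1cam kept its call in 4 of 15 fits at day 5 and 11 of 15 at day 7 (lost without untreated replicate 1 or 2 or OBX day 7 replicate 1 or 3), and at day 7 it changed by -0.50 from sham mice. Ncam1 kept its call in 14 of 15 fits at day 5 (lost without sham replicate 3) and 10 of 15 at day 7 (lost without any 1 untreated array or OBX day 7 replicate 1 or 3), and its changes were -0.19 and -0.18 with scan day as a block. Of the netrin and Slit family 3 genes were measured, and Neo1, a netrin and RGM receptor, fell by 0.56 at day 5 (limma adjusted p = 0.037). Its mean signal was 897.9 at OBX day 5, against 1322 in sham and 1063 in untreated mice, and against untreated mice the change was -0.21 and did not pass. The call was also lost without sham replicate 2 or 3, OBX day 1 replicate 3 or OBX day 5 replicate 2 or 3. With scan day as a block 4 of the 33 named pathway calls remained, those of Sema7a and Stmn4 at day 1 and in the difference between days 5 and 1.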

How the data were processed

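The authors deposited a signal intensity per probe set and array, on a linear scale, together with its present or absent call and that call's detection p-value; the summarising software was not given in any source used. The deposited series table holds the same intensity values as the array files (largest difference 0.0). Trimmed by 2% at each end, the mean signals of the arrays ran from 1500.6 to 1500.7, which shows scaling to 1 level by the authors. Scan days and fluidics runs were read from the authors' deposited array station settings, which hold no measurement. Probe sets were named by the platform annotation (10833 with 1 gene, 396 with several, 1193 with none, 66 array controls left out).

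Signals were raised to a floor of 1 and log2 transformed. The 7508 probe sets present on at least 3 of 15 arrays were fitted with 1 mean per group in limma 3.58.1 under R 4.3.3 (lmFit, eBayes with a trend, prior degrees of freedom 4.52), with Benjamini-Hochberg adjustment per comparison at 0.05, two-sided. The code was tested on simulated data. Summaries used Python 3.11.15 with pandas and scipy. P-values measure the spread between pools. OBX days 1 and 7 had no sham group, so untreated mice served there.

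Members, gene lists and tests were chosen with earlier results of these data known. All member probe sets are named; from each list up to 4 genes with the smallest adjusted p below 0.05 per comparison, each by its brightest probe set; and the 3 genes most like each member. Adcy3, Cnga2, Ebf1, Ebf3, S100a5, Gnb1, Plxnb2, Sema3a, Sema3f, Epha4, Ephb3, Col1a1 and Ibsp were named after their values were seen. Replicate numbers come from the titles. Same-numbered pools correlated at -0.347 to 0.371 in their deviations from the group means, and only between OBX days 5 and 1 were all 3 pairs over 0.1 (0.181, 0.129 and 0.101). Alternatives were other filters, floors, scalings, variance models, batch blocks, the other control, a replicate block and leaving out each array.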

Additional observations from a re-analysis of the deposited data

Results flagged for a closer look

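For 3 guidance and growth cone genes outside the 4 members, the change from control differed between OBX day 5 and OBX day 1 in a limma contrast (Benjamini-Hochberg adjusted over 7508 probe sets). The difference was -1.72 for Sema7a and -1.72 for Stmn4, with adjusted p = 0.00024 for each. It was -1.43 for Pak3, with adjusted p = 0.017. The Pak3 call was lost, with adjusted p up to 0.055, without untreated replicate 1, sham replicate 1 or 2, or OBX day 1 replicate 1 or 2. None of the members differed in this way in the same fit, and no cause was tested.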

How the results depend on the processing

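Of 263 alternative values of the 9 member changes past the threshold, 241 kept direction and call, 22 lost the call and none reversed; where a call was lost, the cause was not tested. Epha5 at day 1 lost its call with no filter on dim probe sets (-0.89), quantile normalization (-0.84), centring on the median (-0.87), scan day as a block (-0.85) and within the first scan day (-0.85); leaving out 1 array gave -1.09 to -0.70, and the call was lost without untreated replicate 1 or 2, sham replicate 3, or any 1 array of OBX day 1 or day 7. The number of member probe sets past the threshold at day 1 was then 1, against 2, with a range of 1 to 3 on leaving out 1 array; with scan day as a block it was 1 at days 1, 5 and 7. Scan day as a block also ended the calls of Epha5 at days 5 (-1.38) and 7 (-0.87) and of Gap43 at days 5 (0.36) and 7 (0.48), and Gap43 at day 5 lost its call with only the groups compared (0.38). Plxna3 at OBX day 5 against day 1 lost its call with only the groups compared (-0.58), scan day as a block (-0.56) and within the second scan day (-0.56). Of the 33 named pathway changes, 410 of 495 values that left out 1 array and 383 of 424 under the alternatives other than scan day kept the call, and none reversed.

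Values near 0 changed sign. Gap43 at day 1 gave -0.01 with quantile normalization, 0.00 with array weights and -0.03 with fluidics run as a random block, and -0.03 to 0.04 on leaving out 1 array (below 0 without untreated replicate 1 or OBX day 1 replicate 2). Nrp1 92773_at gave -0.11 at day 1 with the other control and -0.11 with fluidics run (-0.07 to 0.17 leaving out 1 array), and at day 7 -0.10, -0.09 with scan day and -0.03 (-0.06 to 0.17); untreated replicate 1 turned both, OBX day 1 replicate 2 the first and OBX day 7 replicate 1 the second. Nrp1 95016_at at day 1 passed with array weights (-0.32), only the groups compared (-0.34) and fluidics run (-0.35), with -0.36 to -0.31 on leaving out 1 array and a call without OBX day 5 replicate 1. Leaving out 1 array gave -0.39 to 0.02 at day 5, -0.11 to 0.29 for OBX day 5 against day 1, -0.06 to 0.34 for day 7 against day 5, and -0.05 to 0.36 and -0.13 to 0.28 for the differences between times; array weights gave -0.04 for day 7 against day 5 and -0.05 for its difference. These turned without OBX day 5 replicate 1, or, where day 5 was set against day 1, without OBX day 5 replicate 2 or 3 (the difference: replicate 2).

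Counts over all probe sets, for array weights, only the groups compared, scan day and fluidics run in that order, were 992, 454, 50 and 1492 at day 1 (185 as reported), 2383, 469, 65 and 3847 at day 5 (1578), 2245, 1711, 13 and 3083 at day 7 (978), and 893, 80, 116 and 1550 for OBX day 5 against day 1 (587). The difference between days 5 and 1 (111) gave 396, 60, 15 and 1805, with 72 for no filter and 59 for centring. The F test (1446) gave 3181, 75 and 4937 for weights, scan day and fluidics run. Where none passed, weights gave 2 for sham, fluidics run gave 979 for day 7 against day 5, and the difference between days 7 and 5 gave 1 with centring, 2 with weights and 40 with fluidics run. Leaving out 1 array gave 50 to 630 at day 1, 1077 to 2054 at day 5, 559 to 2045 at day 7, 0 to 1 for sham, 339 to 835 and 0 to 14 between OBX days, 39 to 306 and 0 to 2 for the differences and 1120 to 2351 for F. The highest counts at day 1, day 7, for the first difference and for F came without OBX day 5 replicate 1. At day 1 50 to 105 passed without any 1 untreated array or OBX day 1 replicate 2 or 3, at day 7 559 to 626 without untreated replicate 1 or 3 or any 1 OBX day 7 array, and for OBX day 5 against day 1 339 to 364 without any 1 OBX day 1 array. The first difference gave 39 to 64 without untreated replicate 1 or 2 or any 1 sham or OBX day 1 array, and 184 without OBX day 5 replicate 2. Pathway genes past the threshold numbered 17, 10, 3 and 22 at day 1 (5; 3 to 11 on leaving out 1 array, 3 without untreated replicate 1 or OBX day 1 replicate 2 or 3). At day 5 (23) they numbered 9 with only the groups compared, 1 with scan day and 39 with fluidics run, and at day 7 (20) 31 with weights, 1 with scan day and 41 with fluidics run, or 13 to 30 on leaving out 1 array (13 without untreated replicate 1 or OBX day 7 replicate 3).

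The replicate block gave 573 probe sets for OBX day 5 against day 1 and 72 for the difference between days 5 and 1, and changed no member call, while Sema6d at day 7 and L1cam at day 5 lost theirs. The correlation within runs in the fluidics fit was -0.25. With 3 pools a group and scan day nearly shared with the later OBX groups, small changes could not be resolved.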
